A study of Homo sapiens with 10 samples.

Results

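The STAT genes measured here were STAT2, STAT3, STAT4, STAT5A, STAT5B and STAT6, taken by symbol from 2 expression tables, and they made up 6 of the 25275 gene symbols in each table. The series covers 2 established human lymphoma lines, OCI-LY10 and TMD8, which belong to the activated B-cell-like class of diffuse large B-cell lymphoma. It holds 6 RNA-seq samples and 4 STAT3 ChIP-seq samples, and the ChIP-seq samples, taken with or without the JAK inhibitor AZD1480, are not analysed here. In each line the RNA-seq samples carried shSTAT3#10, shSTAT3#16 or a control shRNA, and all of them, controls included, received doxycycline at 20 ng/ml for 2 days to induce the hairpin. The OCI-LY10 groups were 2 STAT3 shRNA libraries, 1 for each hairpin, and 1 control shRNA library. The TMD8 table has 3 value columns without names, so its columns are given by position, with no shRNA assigned to any of them. No label says whether the libraries came from separate cultures or clones.

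STAT proteins are transcription factors that wait in the cytoplasm until a cytokine receptor is engaged. Receptor-bound JAK kinases then phosphorylate them, they pair through their SH2 domains, and the dimers bind DNA in the nucleus and activate genes that include their own inhibitors, the SOCS genes. STAT2 acts with IRF9 downstream of interferons, STAT3 downstream of IL-6 and IL-10, STAT4 downstream of IL-12, STAT5A and STAT5B downstream of IL-2 family cytokines, and STAT6 downstream of IL-4 and IL-13. Activated B-cell-like lymphoma is known for STAT3 activity driven by IL-6 and IL-10 that the tumour cells secrete themselves.

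Among the genes measured, STAT5B, STAT5A and STAT3 are consecutive on chromosome 17 in the RefSeq order (GRCh38.p14). Of the members above 1 FPKM, STAT5A and STAT3 were those whose levels differed most between libraries. The 250 bases before the annotated start of each of these 3 genes are shown as a description, and their link to the levels was not tested. They are from RefSeq, written 5′ to 3′ on the strand of the gene. STAT3 is on the minus strand (chr17:42388443-42388692), as is STAT5B (chr17:42276392-42276641), and STAT5A is on the plus strand (chr17:42287189-42287438, the first of its 3 annotated starts). Capitals mark the spaced form of the STAT recognition motif, TTC and GAA with 4 free bases between them.
STAT3: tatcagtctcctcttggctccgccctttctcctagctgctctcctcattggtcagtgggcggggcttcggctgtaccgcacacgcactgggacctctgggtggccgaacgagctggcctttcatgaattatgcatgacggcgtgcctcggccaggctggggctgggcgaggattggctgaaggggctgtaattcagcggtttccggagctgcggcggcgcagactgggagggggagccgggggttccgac
STAT5A: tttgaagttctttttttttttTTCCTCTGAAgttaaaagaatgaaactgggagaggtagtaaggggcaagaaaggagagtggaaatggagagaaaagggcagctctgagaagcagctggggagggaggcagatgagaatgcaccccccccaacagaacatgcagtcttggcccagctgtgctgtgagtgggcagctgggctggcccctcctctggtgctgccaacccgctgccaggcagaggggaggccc
STAT5B: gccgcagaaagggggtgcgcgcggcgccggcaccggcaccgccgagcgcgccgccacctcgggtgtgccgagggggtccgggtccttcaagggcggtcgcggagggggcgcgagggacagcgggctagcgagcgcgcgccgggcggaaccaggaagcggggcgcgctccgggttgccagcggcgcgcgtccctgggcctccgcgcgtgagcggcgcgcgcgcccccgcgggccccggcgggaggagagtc

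All 6 genes were found among the RefSeq promoters, with 9 windows in all, since STAT5A has 3 annotated starts and STAT4 has 2. TTCNNNGAA, the classical motif, was in 0 of the 9 windows, against 6.57% of the 35116 windows of all genes. The spaced form with 4 free bases was in 1 of the 9 windows, that of STAT5A shown above, where it begins 229 bases before the start, against 5.38% of all windows. Both motifs read the same on both strands, and a match is a description of the letters in the window. The windows also differed in base composition. G and C made up 82.0% of the STAT5B window, more than in 98.3% of all windows, against 64.4% for STAT3 and 54.8% for the STAT5A window shown, where the median of all windows was 58.0%. The other STAT5A windows held 65.6% and 74.4%.

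Values are FPKM, fragments scaled to gene length and library size, as deposited. Absolute depth is unknown. From the steps between low values, depth relative to the shRNA 10 library was 0.731 for shRNA 16 and 1.52 for the control in OCI-LY10, and relative to the first column it was 0.958 and 0.865 for the other TMD8 columns. Across 10995 genes, which are not independent replicates, log2(FPKM + 1) of the STAT3 shRNA libraries correlated at r = 0.994 with each other and at 0.845 with the library labelled control shRNA. That control library correlated at 0.937 to 0.962 with the TMD8 columns, so it stood closer to the other cell line than to the STAT3 shRNA libraries of its own line. Without it no OCI-LY10 comparison can be made. Every difference between STAT3 shRNA and control shown here is therefore between libraries as labelled, and whether the labels explain the distance was not tested. Small RNA genes took 57.9% and 58.3% of the summed FPKM with STAT3 shRNA, 49.2% in the control and 22.9% to 43.4% in TMD8.

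The B-cell label fitted the markers: 7 of 7 B-cell markers reached 1 FPKM, and their summed level was 2386 and 2642 FPKM in the STAT3 shRNA libraries, 838 FPKM in the control and 802 to 958 FPKM in the TMD8 columns. With STAT3 shRNA 5 of the 7 were called higher and 1 lower (limma, as for the STAT genes). Of all genes tested, 20.3% were called higher and 17.4% lower. What part these markers have in the STAT results was not tested. Of 11 T-cell and NK-cell markers, 2 (CD5 and PRF1) reached 1 FPKM in any library, and CD3D and CD2 were listed at 0 in all 6. Their sums were 8.27 and 11.6 FPKM with STAT3 shRNA, 16.6 FPKM in the control and 4.23 to 8.31 FPKM in TMD8. Different genes made up these sums. CD5 was at 0 and 0.0218 FPKM with STAT3 shRNA, against 15.8 FPKM in the control. PRF1 was at 7.71 and 10.7 FPKM with STAT3 shRNA, against 0.0402 FPKM in the control. In every TMD8 column CD5 was above PRF1, as in the control. Of 8 myeloid markers, 0 reached 1 FPKM. Of 6 stromal markers, 4 reached it, with sums of 5.46 to 6.96 FPKM over the 6 libraries.

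STAT3, the gene the hairpins target, stood at 11.1 FPKM under shRNA 10 and 10.6 FPKM under shRNA 16, and 16.5 FPKM in the OCI-LY10 control library. Both STAT3 shRNA libraries were below the control, and they differed little from each other. The mean with STAT3 shRNA was 10.9 ± 0.397 FPKM (SD, n = 2), or 65.8% of the control. On the log2(FPKM + 1) scale STAT3 fell by 0.56 (SE 0.10, adjusted p = 0.0465, limma with Benjamini-Hochberg adjustment over 11162 genes). The call lies near the threshold of 0.05: it ended with a pseudocount of 0.1 FPKM (adjusted p = 0.0508, limma) and with no filter on low values (adjusted p = 0.0688, limma). Because the control is 1 library, the spread behind these p-values comes from how far the shRNA 10 and shRNA 16 libraries lie apart, over this and all other genes, and that distance may be technical. In bulk RNA, fewer cells expressing a gene and less RNA per cell cannot be told apart. Of the genes tested, 44.7% changed by more than STAT3.

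STAT5A, which relays signals of IL-2 family cytokines, was the member called higher with STAT3 shRNA. It stood at 6.11 FPKM under shRNA 10 and 6.32 FPKM under shRNA 16, and 2.69 FPKM in the control library. Both STAT3 shRNA libraries lay above the control. Their mean was 6.22 ± 0.155 FPKM (SD, n = 2), or 231% of the control, a log2 change of 0.97 (SE 0.10, adjusted p = 0.0220, limma). STAT5A remained called under each of 8 other settings of the fit, with adjusted p between 0.00895 and 0.0489 (limma). Of the genes tested, 25.1% changed by more.

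STAT5B encodes a protein nearly identical to STAT5A, so the share of reads that could be assigned to either gene is uncertain, since the method of counting is not given in the sources used here. It stood at 7.25 FPKM under shRNA 10 and 8.41 FPKM under shRNA 16, and 9.23 FPKM in the control library. Both values were below the control, in the direction opposite to STAT5A. The log2 difference was -0.21 (SE 0.14) and did not pass the test (adjusted p = 0.315, limma). The ratio of STAT5A to STAT5B within a library, which no scaling between libraries can move, was 0.842 under shRNA 10 and 0.752 under shRNA 16, and 0.291 in the control library. In the TMD8 columns it was 0.678, 0.794 and 0.467, and STAT5A was the lower of the pair in all 6 libraries.

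STAT6, the IL-4 and IL-13 factor, was the most abundant member in OCI-LY10. It stood at 63.5 FPKM under shRNA 10 and 67.2 FPKM under shRNA 16, and 74.2 FPKM in the control library, and its log2 difference was -0.18 (SE 0.09, adjusted p = 0.230, limma). STAT2, the partner of IRF9, stood at 15.0 FPKM under shRNA 10 and 16.5 FPKM under shRNA 16, and 14.0 FPKM in the control library, with a log2 difference of 0.16 (SE 0.12, adjusted p = 0.354, limma). For both genes the STAT3 shRNA libraries lay on 1 side of the control, but the test was not passed. STAT4, the IL-12 factor of T cells and NK cells, was listed at 0 in both STAT3 shRNA libraries and at 0.0721 FPKM in the control. In TMD8 it was at 0.126, 0.0807 and 0.0779 FPKM in the order of the columns. It was under the 1 FPKM filter and was not tested, and no fold is given.

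**Figure D1:**
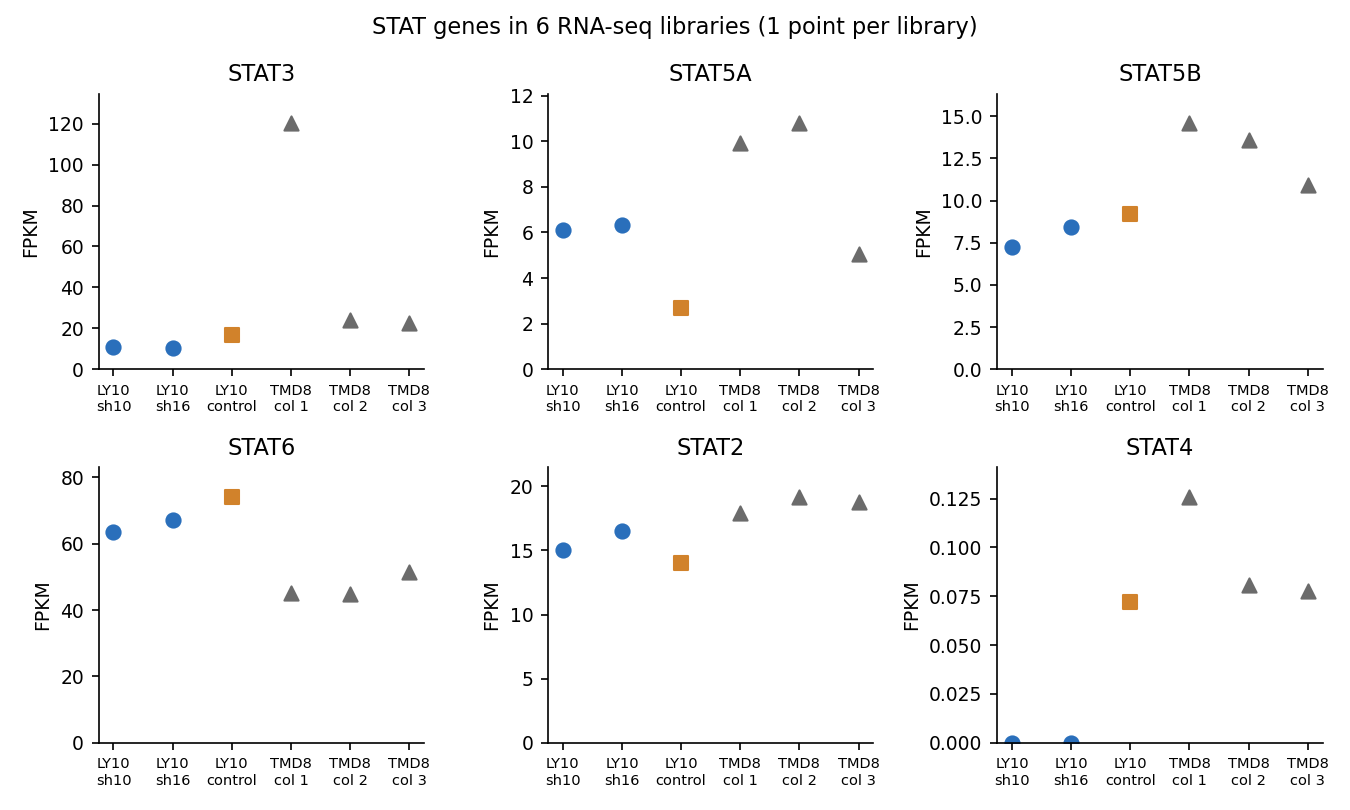
FPKM (y axis, starting at 0, with its own scale for each gene) of the 6 STAT genes in each library, 1 point per library: OCI-LY10 with STAT3 shRNA 10 and 16 (blue circles), OCI-LY10 control shRNA (orange square) and the 3 unnamed TMD8 columns (grey triangles). STAT5A lies above the control in both STAT3 shRNA libraries, STAT3 lies below it, and the first TMD8 column holds 120.3 FPKM of STAT3.

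In all, 5 of the 6 members passed the filter of a mean of 1 FPKM over the 3 OCI-LY10 libraries. Of these 5, 1 was called higher and 1 lower with STAT3 shRNA, while 20.3% of all genes tested were called higher and 17.4% lower (limma, adjusted p under 0.05). The median log2 change of the 5 was -0.18, beside 0.06 for all genes tested. The median size of the change, sign aside, was 0.21 for the 5 and 0.49 for all genes. A count of 1 in 5 in each direction is near that background. Between 75.0% and 80.9% of the genes tested changed by more than STAT5B, STAT6 or STAT2. For the members, shRNA 16 over shRNA 10 was 0.950 for STAT3, 1.04 for STAT5A, 1.06 for STAT6, 1.10 for STAT2 and 1.16 for STAT5B, as ratios of FPKM from 1 library each, with no test. As higher over lower (FPKM + 1), the median of all genes was 1.09. The share of genes with a larger ratio was 80.1% for STAT5A, 70.0% for STAT3, 65.7% for STAT6, 47.4% for STAT2 and 31.4% for STAT5B.

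**Figure D2:**
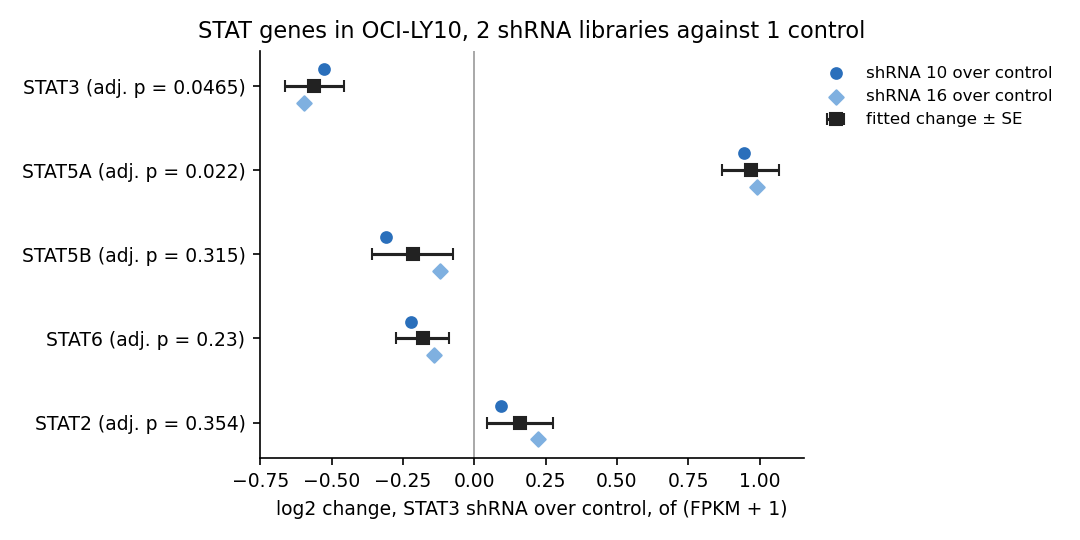
Log2 change (x axis) of (FPKM + 1) with STAT3 shRNA over control in OCI-LY10 for the 5 STAT genes tested, as the fitted value ± SE (black squares, 2 libraries against 1) and as each STAT3 shRNA library over the control (circles and diamonds). STAT5A at 0.97 and STAT3 at -0.56 passed the test, and the fitted values of the other 3 genes lie within 0.22 of 0.

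The make-up of the family within a library was compared through each gene's share of the summed FPKM of the 6. STAT6 held 61.6% of the sum under shRNA 10 and 61.6% under shRNA 16, and 63.6% in the control library. STAT3 held 10.8% under shRNA 10 and 9.70% under shRNA 16, and 14.1% in the control library. STAT5A held 5.92% and 5.80% with the STAT3 shRNAs, against 2.30% in the control. With STAT3 shRNA the order of levels was STAT6, STAT2, STAT3, STAT5B, STAT5A and STAT4, with no overlap between neighbours over the 2 libraries. In the control STAT3 and STAT2 changed places: the ratio of STAT3 to STAT2 was 0.741 under shRNA 10 and 0.639 under shRNA 16, and 1.18 in the control library.

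In the TMD8 columns, STAT3 stood out by its spread. It was at 120.3 FPKM in the first column, 24.3 FPKM in the second and 22.5 FPKM in the third. The first value was 4.94 times the second and 5.36 times the third. Measured as the highest over the lowest (FPKM + 1), STAT3 spread 5.17-fold, the twelfth largest spread of 10694 genes, where the median gene spread 1.21-fold and 9.96% of genes spread 1.5-fold or more. Which columns carry STAT3 shRNA is not given by the table, so this is a description of 3 columns and no effect of a hairpin is read from it.

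STAT5A was at 9.91, 10.8 and 5.07 FPKM in the 3 TMD8 columns in order. The third column was the low one, and the spread of 1.94-fold was exceeded by 1.68% of genes. STAT5B was at 14.6, 13.6 and 10.9 FPKM, a 1.32-fold spread, also with the third column lowest. STAT6 was at 45.2, 44.9 and 51.4 FPKM and spread 1.14-fold. STAT2, at 17.9, 19.2 and 18.8 FPKM, was the steadiest member, and 91.7% of genes spread more than its 1.07-fold. STAT3 and STAT5A were the 2 of 5 members past 1.5-fold, and their highest columns were not the same one.

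**Figure D3:**
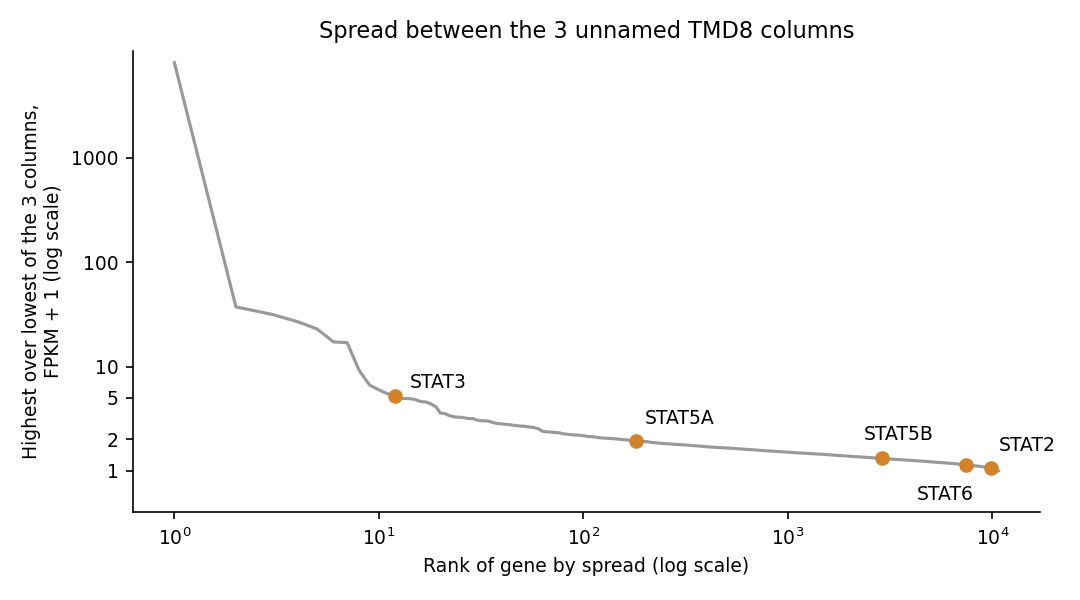
Highest over lowest (FPKM + 1) of the 3 unnamed TMD8 columns (y axis, log scale) for 10694 genes ranked by that spread (x axis, log scale), as a grey line with the 5 STAT genes that pass 1 FPKM marked in orange. STAT3 is at rank 12 with 5.17-fold, STAT5A at rank 181 with 1.94-fold, and STAT2 is near the flat end of the line.

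The share of STAT3 in the family sum was 57.8% in the first TMD8 column, 21.6% in the second and 20.7% in the third, and that of STAT6 was 21.7%, 39.8% and 47.3%. STAT3 was therefore the most abundant member in the first column and STAT6 in the other columns. Over the 3 columns the ranges of STAT6 and STAT3 overlapped, and below them STAT2, STAT5B, STAT5A and STAT4 followed with no overlap between neighbours. The ratio of STAT6 to STAT2, which leaves STAT3 out, was 2.52, 2.34 and 2.74. The summed FPKM of the 6 genes was 208 FPKM in the first column and 113 and 109 FPKM in the others.

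**Figure D4:**
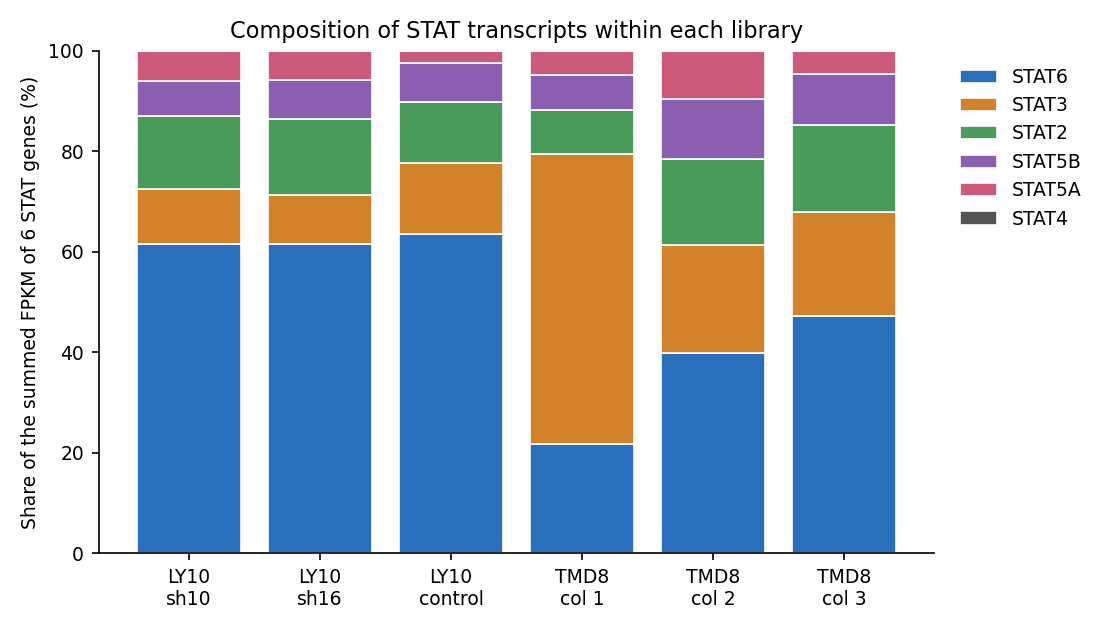
Share of the summed FPKM of the 6 STAT genes held by each gene (y axis, percent, stacked to 100) in each library (x axis). STAT6 holds 61.6% to 63.6% in the OCI-LY10 libraries, and STAT3 holds 57.8% in the first TMD8 column.

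Levels in OCI-LY10 were set beside TMD8 without a test, since the tables may have been normalized separately. A gene was counted where the OCI-LY10 libraries and the TMD8 columns did not overlap and the ratio of mean (FPKM + 1) reached 1.5-fold. In the STAT3 shRNA libraries, 2 of 5 members were below TMD8 by this rule, STAT3 with a ratio of 0.209 and STAT5B with a ratio of 0.630, and 0 were above it. Of all 11340 genes with a mean of 1 FPKM, 27.0% were below and 23.2% above. STAT6 was above every TMD8 column (ratio 1.38) and STAT2 below every one (0.856) without reaching 1.5-fold, and STAT5A overlapped them.

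In the OCI-LY10 control library, STAT3 (ratio 0.308) and STAT5A (0.385) were below the TMD8 columns by this rule and STAT6 (1.56) was above them. Of all genes, 15.3% were below and 11.1% above. STAT5B (0.730) and STAT2 (0.765) were below every column without reaching 1.5-fold. The STAT3 ratios draw on the high first TMD8 column: against the median of the 3 columns, STAT3 was at 0.446 times its FPKM with STAT3 shRNA and 0.678 times in the control. STAT6 was thus above, and STAT3, STAT5B and STAT2 below, every TMD8 column in each of the 3 OCI-LY10 libraries. How many of all genes lay apart in this way without the 1.5-fold rule was not counted. It is therefore not read as a trait of the members. With 1 control library, and with the distances between libraries given above, line and library cannot be told apart.

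Likeness of profiles over the 6 libraries was measured for the 5 members above 1 FPKM as the Euclidean distance between log2(FPKM + 1) profiles centred on each gene's own mean, among 10995 genes. The profiles were not scaled, so this distance grows with the size of a gene's differences between libraries. STAT5B was closest to UBL7 (distance 0.0586), WDR45 (0.0783) and SARS2 (0.117). STAT6 was closest to ZFYVE27 (0.0772), INTS9 (0.0893) and ATXN7L2 (0.109), and STAT2 to KIF18A (0.0789), STX3 (0.0874) and SLU7 (0.0990). STAT5A was closest to CXXC5 (0.228), SH2B2 (0.297) and RFNG (0.313). CXXC5 stood at 30.7 and 31.6 FPKM with STAT3 shRNA, 18.0 FPKM in the control and 47.4, 48.4 and 27.7 FPKM in the TMD8 columns.

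STAT3 had no near match by this unscaled distance, and of the members above 1 FPKM it also differed most between libraries. Its closest genes were BTBD16 (0.822), TMEM238 (1.03) and TMEM183A (1.32). BTBD16 stood at 0.143 and 0.157 FPKM with STAT3 shRNA, 0.301 FPKM in the control and 11.5, 3.08 and 1.71 FPKM in the TMD8 columns. Among the members themselves STAT2 and STAT5B had the closest profiles (0.588) and STAT3 and STAT6 the most distant (3.31), while the paralogs STAT5A and STAT5B lay 1.09 apart.

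The genes next to the members on the chromosome, among the genes measured, had values of their own. PTRF, which encodes a coat protein of caveolae and follows STAT3 in the RefSeq order, was at 2.54 and 3.18 FPKM with STAT3 shRNA, against 0.180 FPKM in the control (log2 change 1.70, SE 0.15, adjusted p = 0.0184, limma). It moved opposite to STAT3, but it passed the filter only through the STAT3 shRNA libraries, which fixed its direction. GHDC, which precedes STAT5B, was at 7.91 and 9.47 FPKM with STAT3 shRNA, against 5.06 FPKM in the control, and did not pass the test (adjusted p = 0.0689, limma). Across GHDC, STAT5B, STAT5A, STAT3 and PTRF, calls in opposite directions thus stood side by side. IL23A, a subunit of the cytokine IL-23 and the neighbour of STAT2, was at 0.562 and 0.615 FPKM with STAT3 shRNA, against 3.95 FPKM in the control (log2 change -1.64, adjusted p = 0.0104, limma). IL23A passed the filter only through the control, which fixed its direction. NAB2, a co-repressor of EGR factors beside STAT6, was at 9.07 and 11.4 FPKM with STAT3 shRNA, against 12.3 FPKM in the control (adjusted p = 0.363, limma).

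The rest of the pathway was read from 10 lists, ordered by role, with 90 different genes tested in OCI-LY10. With STAT3 shRNA 22 of these were called higher and 27 lower, and their median log2 change was 0.12, beside 20.3% of all genes tested called higher and 17.4% lower with a median of 0.06. These shares are the background for the count of every list that follows, no list was tested as a set, and several counts moved by over 1.5 times with the filter on low values. A gene under 1 FPKM in the control, or in both STAT3 shRNA libraries, passed the filter only through the other side, which fixed its direction. How many of all genes did so was not counted. Among the cytokines that activate STATs, 0 of 7 tested were called higher and 5 lower, with a median log2 change of -1.64. With a filter at 5 FPKM the 5 became 1. IL6, IL12B and IL23A, all called lower, were under 1 FPKM in both STAT3 shRNA libraries, so the filter fixed their direction. IL10, an activator of STAT3, was at 1.39 and 2.44 FPKM with STAT3 shRNA, against 97.3 FPKM in the control (log2 change -5.10, adjusted p = 0.0120, limma). IL12B, a subunit of IL-12, was listed at 0 with both STAT3 shRNAs and at 11.6 FPKM in the control. In the TMD8 columns IL10 was at 87.1, 72.6 and 89.0 FPKM, nearer to the OCI-LY10 control than to the STAT3 shRNA libraries.

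Of the cytokine receptor genes 5 of 15 tested were called higher and 4 lower, with a median of 0.20; the 5 became 1 with no filter on low values and 3 under quantile normalization. IL12RB1, a receptor subunit for IL-12 and IL-23, was at 5.63 and 6.67 FPKM with STAT3 shRNA, against 2.15 FPKM in the control. IL4R, the receptor chain that recruits STAT6, was at 12.8 and 11.6 FPKM with STAT3 shRNA, against 5.77 FPKM in the control. IL2RB, the receptor chain that recruits STAT5, was at 0.564 and 0.991 FPKM with STAT3 shRNA, against 10.4 FPKM in the control. IL13RA1, which pairs with IL4R, fell (log2 change -1.90, adjusted p = 0.00908, limma). IL2RB and IL13RA1 were under 1 FPKM in both STAT3 shRNA libraries, and IL6ST in the control, so the filter fixed their direction.

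Among the JAK kinases 1 of 4 was called higher and 1 lower. JAK3, which works at receptors of the IL-2 family, was at 3.40 and 3.39 FPKM with STAT3 shRNA, against 1.61 FPKM in the control (log2 change 0.75, adjusted p = 0.0260, limma). JAK2 was at 1.36 and 1.22 FPKM with STAT3 shRNA, against 11.2 FPKM in the control (log2 change -2.41, adjusted p = 0.00894, limma). In TMD8 JAK2 was at 13.2, 13.7 and 15.0 FPKM, close to the control. Among negative regulators 1 of 15 was called higher and 5 lower. Of these, SOCS1 was under 1 FPKM in both STAT3 shRNA libraries, so the filter fixed its direction. SOCS3, the feedback inhibitor that STAT3 induces, averaged 1.36 ± 0.194 FPKM with STAT3 shRNA (SD, n = 2), against 27.3 FPKM in the control (log2 change -3.59, adjusted p = 0.00773, limma). PTPN6, the phosphatase SHP-1, fell as well, while PIAS4, an inhibitor of STAT-driven transcription, rose with a log2 change of 1.13 (adjusted p = 0.0190, limma). PTPN1, at 93.2 and 81.6 FPKM with STAT3 shRNA and 111 FPKM in the control, did not pass the test (adjusted p = 0.147, limma).

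Among partners and co-activators, 2 of 9 were called higher and 1 lower. The co-activator NCOA1 rose (log2 change 0.66, adjusted p = 0.0369, limma). JUN, an AP-1 subunit, fell close to the threshold (log2 change -1.56, adjusted p = 0.0495, limma). Target genes were listed by the factor best known to drive them, and the lists share genes. On the STAT2-IRF9 list, which holds STAT2 itself, 8 of 16 were called higher and 0 lower, with a median of 0.64, where 20.3% of all genes were called higher. IFI44, induced by interferon, was at 16.5 and 17.2 FPKM with STAT3 shRNA, against 0.853 FPKM in the control, and the antiviral GTPase MX1 was at 114 and 110.0 FPKM with STAT3 shRNA, against 47.3 FPKM in the control. IFI44 was under 1 FPKM in the control, so the filter fixed its direction. STAT2 itself was not called.

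On the STAT3 list, which holds STAT3 itself, 2 of 18 were called higher and 9 lower, with a median log2 change of -0.38, where 17.4% of all genes were called lower. FOS, CCND1 and PRDM1, all called lower, were under 1 FPKM in both STAT3 shRNA libraries, so the filter fixed their direction. BATF, a partner of JUN and IRF4 in B cells, was at 59.9 and 66.7 FPKM with STAT3 shRNA, against 222 FPKM in the control (log2 change -1.79, adjusted p = 0.0134, limma). PIM1, a survival kinase on the STAT3 and STAT5 lists, went the other way, at 321 and 352 FPKM with STAT3 shRNA, against 54.6 FPKM in the control (log2 change 2.60, adjusted p = 0.00879, limma). CCND2, a D cyclin on both lists, also rose (log2 change 1.19, adjusted p = 0.0194, limma), and MYC at 110.2 and 130.0 FPKM with STAT3 shRNA, against 109.9 FPKM in the control, did not pass the test (adjusted p = 0.560, limma).

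On the STAT5 list 3 of 7 were called higher and 2 lower, with a median of 0.69. CCND3, another D cyclin, was at 64.6 and 64.2 FPKM with STAT3 shRNA, against 17.9 FPKM in the control (log2 change 1.79, adjusted p = 0.00968, limma). ID1, an inhibitor of helix-loop-helix factors, and SOCS1, a feedback inhibitor that is also on the STAT6 list, were the 2 that fell. Each was under 1 FPKM in both STAT3 shRNA libraries, so the filter fixed its direction. On the STAT6 list 2 of 6 were called higher and 4 lower, with a median of -1.63, and the 4 became 2 with a filter at 5 FPKM or a pseudocount of 0.1 FPKM. CCL17 and SOCS1 passed the 1 FPKM filter only through the control, and FCER2 only through the STAT3 shRNA libraries, which fixed their direction. FCER2, which encodes the IgE receptor CD23, was at 17.3 and 20.9 FPKM with STAT3 shRNA, against 0.197 FPKM in the control, whereas the chemokine gene CCL22 was at 1.87 and 1.62 FPKM with STAT3 shRNA, against 43.3 FPKM in the control. IL4I1, an amino acid oxidase, fell too, but its values with STAT3 shRNA, 5.15 and 13.1 FPKM, lay far apart, against 341 FPKM in the control. On the STAT4 list 2 of 10 genes were tested, and PRF1, which is also on the T-cell and NK-cell marker list, was at 7.71 and 10.7 FPKM with STAT3 shRNA, against 0.0402 FPKM in the control (log2 change 3.28, adjusted p = 0.0155, limma). PRF1 passed the filter only through the STAT3 shRNA libraries, which fixed its direction. In the TMD8 columns FCER2 was listed at 0.0399, 0 and 0 FPKM and CCND3 at 14.3, 13.2 and 13.8 FPKM, both nearer to the OCI-LY10 control. IL4R on the STAT6 list, at 10.7, 10.6 and 9.11 FPKM in TMD8, lay nearer to the STAT3 shRNA libraries. How many genes of the lists lay nearer to either was not counted.

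In the TMD8 columns the same lists were set beside the spread of STAT3 and STAT5A. Of the STAT3 targets 4 of 17 measured spread 1.5-fold or more, beside 9.96% of all genes. These were STAT3 itself, CEBPB, BCL3 and JUNB, of which the last 3 were named after their values were seen. CEBPB was at 24.3, 18.2 and 7.39 FPKM and BCL3 at 96.7, 92.4 and 49.2 FPKM, both highest in the first column. For both, the second column lay nearer to the first than to the third, whereas for STAT3 it lay nearer to the third. JUNB was at 17.0, 21.6 and 12.0 FPKM, highest in the second. SOCS3 was at 15.5, 16.6 and 15.5 FPKM. Of the STAT6 targets 5 of 6 spread 1.5-fold or more, beside the same 9.96%. SOCS1 was at 13.9, 12.5 and 4.26 FPKM and CCL22 at 109.5, 75.0 and 51.1 FPKM, both lowest in the third column, as STAT5A was, while IL4I1 was highest there, at 36.9, 45.4 and 68.2 FPKM. How many of all genes were highest or lowest in a given column was not counted. Of the STAT2-IRF9 targets 0 of 11 and of the STAT5 targets 2 of 7 spread that far.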

How the data were processed

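RNA-seq values of 6 samples from 2 human lymphoma lines were used. The authors deposited 1 table of FPKM values per line, and the submitters' processing notes name TopHat, Bowtie2 and hg19 (versions and roles not given). Per the labels' protocols, library preparation used a TruSeq kit. For the annotation, the tool behind the FPKM, strandedness and any scaling between libraries, the method is not given in the sources used here. OCI-LY10 columns were matched by name. The 3 TMD8 columns bear no name and were tied to the group of TMD8 RNA-seq samples by the table that their labels name, and were not compared with each other as conditions. Of 25275 symbols, 22534 matched a current symbol, 1589 an older one and 1152 neither.

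Genes whose OCI-LY10 mean reached 1 FPKM were fitted with limma 3.58.1 in R 4.3.3 on log2(FPKM + 1), with a mean-variance trend, two-sided, 1 residual and 1.64 prior degrees of freedom, and Benjamini-Hochberg adjustment at 0.05. This scale understates the change of low genes. The control's spread is unobserved and was assumed equal to that of the STAT3 shRNA libraries. The fit was tested on simulated data. An FPKM of 0 can be a failed estimate, so such genes are described as listed at 0. Coordinates and promoter windows come from RefSeq (GRCh38.p14), not from the build of the tables.

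The members and gene lists were chosen with earlier results of these data known. Named genes were the members, the 3 most like genes of each, their neighbours and, from each list, up to 2 called genes in each direction with the largest change plus genes reaching 100 FPKM. Some genes this rule names are not reported here. Other settings were the pseudocount, the filter, scaling, small RNA genes, the trend, the fold and each STAT3 shRNA library left out.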

Additional observations from a re-analysis of the deposited data

How the results depend on the processing

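STAT3 kept its direction under every setting run. With a pseudocount of 0.1 FPKM its log2 change was -0.599 (adjusted p = 0.0508, limma), which left 0 members called lower, and with no filter on low values it was -0.561 (adjusted p = 0.0688, limma). Over the 8 other settings its adjusted p ranged between 0.0294 and 0.0688 (limma) and it was called in 6. In the unfiltered fit the 1 member called lower was STAT4, listed at 0 in both STAT3 shRNA libraries, so that these had no spread. Without 1 of the STAT3 shRNA libraries, STAT3 was at -0.595 to -0.527, values with no test, and counts of calls could not be had. Without a filter 1299 of all genes and 12 pathway genes were called higher, a drop whose cause was not tested. With a filter at 5 FPKM 1178 of all genes and 12 pathway genes were called lower, with fewer genes tested. By list, no filter left 1 of 5 cytokine receptors, 0 of 1 JAK kinases, 0 of 2 partners, 0 of 1 STAT4 targets and 1 of 2 STAT6 targets called higher, while 1 STAT2-IRF9 target and 2 STAT4 targets became called lower. The 5 FPKM filter left 3 of 5 receptors and 0 of 1 JAK kinases called higher, and 1 of 5 cytokines, 2 of 4 receptors, 3 of 5 negative regulators, 0 of 1 JAK kinases, 0 of 1 partners, 0 of 2 STAT5 targets and 2 of 4 STAT6 targets called lower. Quantile normalization left 3 of 5 receptors and median-of-ratios scaling 1 of 2 partners called higher, and a pseudocount of 0.1 FPKM left 0 of 1 partners, 1 of 2 STAT5 targets and 2 of 4 STAT6 targets called lower. These are counts and do not say which genes. Beside TMD8, a 2-fold rule left 1 member (STAT3) below in the STAT3 shRNA libraries and 0 above in the control, and leaving out a STAT3 shRNA library gave 1 to 2 members below, with STAT5B lost without shRNA 10's library. No value reversed. No paired analysis was possible because the control is a single library. FPKM carries no read totals, so counting error could not be given.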
